A study of Mus musculus with 8 samples.

Results

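The Iroquois genes Irx1 to Irx6, the Tgif genes Tgif1 and Tgif2, and Mohawk (Mkx) encode homeodomain transcription factors of the TALE class. They were taken by gene symbol, and all 9 were present among the 18904 genes of the Meis1 table and the 17348 genes of the Prep1 table. The data are 8 messenger RNA libraries of whole mouse embryos (strain C57BL/6) collected at embryonic day 11.5. Embryos labelled as a Meis1 knockout (KO, 3 libraries) were set against wild-type (WT) littermates (3 libraries), and an embryo library labelled Prep1 hypomorph (1 library) against that of WT littermates (1 library). Prep1, a TALE gene itself, is listed as Pknox1. The sources used here do not say how the alleles were made or how many embryos a library holds, so the p-values below measure only the spread between these libraries.

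TALE homeodomains carry extra residues in the loop between the first and second helix. Meis and Prep proteins bind DNA together with Pbx partners, and Tgif proteins recognise the same short core sequence but act as repressors. Iroquois genes lie in 2 clusters of 3 genes and pattern the neural tube, heart, limb and other organs in overlapping domains. Tgif1 and Tgif2 restrain TGF-beta and Nodal signalling through Smad proteins, and in humans TGIF1 is a holoprosencephaly gene. Mkx is a regulator of tendon formation.

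The homeobox stretch that encodes the DNA-recognition helix is shown for 8 members, without Mkx, so that their likeness can be read in the letters. Each line gives 48 bases of the coding strand from GENCODE transcripts (GRCm38), 5′ to 3′, with the 24 bases common to all 8 genes in capitals.
Irx1: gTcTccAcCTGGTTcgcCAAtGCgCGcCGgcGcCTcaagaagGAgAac
Irx2: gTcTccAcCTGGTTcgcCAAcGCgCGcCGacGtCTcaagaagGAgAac
Irx3: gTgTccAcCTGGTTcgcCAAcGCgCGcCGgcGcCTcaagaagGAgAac
Irx4: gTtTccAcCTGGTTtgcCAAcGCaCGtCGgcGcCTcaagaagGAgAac
Irx5: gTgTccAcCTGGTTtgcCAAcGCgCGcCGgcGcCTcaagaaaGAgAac
Irx6: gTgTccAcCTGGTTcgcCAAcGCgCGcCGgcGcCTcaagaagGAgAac
Tgif1: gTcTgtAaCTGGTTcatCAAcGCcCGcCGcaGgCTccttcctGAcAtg
Tgif2: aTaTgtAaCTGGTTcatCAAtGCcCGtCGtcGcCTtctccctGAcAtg
In GRCm38 the stretch of Irx3 lies at chr8:91800499-91800546 on the minus strand and that of Irx6 at chr8:92677374-92677421 on the plus strand. Irx3 and Irx6 were identical over these bases, and identity between 2 Iroquois genes ranged from 87.5% to 100% (median 93.75%). Tgif1 and Tgif2 shared 81.25% of the bases, and an Iroquois and a Tgif gene shared 54.2% to 62.5%.

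Reads were 68 bases long, so each member's transcripts were cut into all words of that length and searched for in the other genes' transcripts. Irx1, Irx2, Irx4, Irx5 and Tgif1 shared no word with another gene on either strand. Irx3 and Irx6 shared 21 words, 0.76% of those of Irx3. Tgif2 shared 15.8% of its words with the pseudogene Tgif2-ps2 and 54.2% with 5430405H02Rik, a gene on the opposite strand. Mkx shared 4.28% of its words with other genes on its own strand. The values of Tgif2 are uncertain to the extent of its shared words. The sources used here do not say whether the counting used strand. That bears on the words shared with 5430405H02Rik, whereas those shared with Tgif2-ps2 are on the same strand.

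The short letters bound by these factors were looked up in the windows from 250 bases before to 50 bases after each annotated gene start (RefSeq, GRCm38.p6), on both strands. The table held 9 windows for 5 of the 9 members (Irx2, Irx3, Irx4, Tgif2 and, with 5 starts, Tgif1). The Meis and Prep site TGACAG was in 2 of the 9 windows, both of Tgif1, and in 19.2% of all 32851 windows. The shorter core TGACA, contained in the first, was in 4 of the 9 windows, again all of Tgif1, and in 45.4% of all windows. The Iroquois site ACANNTGT was in 1 window, of Tgif1, and in 7.38% of all. The Tgif1 stretches with TGACAG are shown with these letters in capitals. They lie on the minus strand at chr17:70846728-70846769 and chr17:70851176-70851235, with TGACAG beginning 38 and 5 bases downstream of the respective gene starts.
Tgif1, first stretch: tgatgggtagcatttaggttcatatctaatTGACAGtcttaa
Tgif1, second stretch: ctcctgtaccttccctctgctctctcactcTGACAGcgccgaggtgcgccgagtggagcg
The Irx3 window (chr8:91801605-91801904, minus strand) is shown because Irx3 differed most between the Prep1 libraries, with the 50 bases after the gene start in capitals. The letters TGACA and ACANNTGT are not in it.
Irx3: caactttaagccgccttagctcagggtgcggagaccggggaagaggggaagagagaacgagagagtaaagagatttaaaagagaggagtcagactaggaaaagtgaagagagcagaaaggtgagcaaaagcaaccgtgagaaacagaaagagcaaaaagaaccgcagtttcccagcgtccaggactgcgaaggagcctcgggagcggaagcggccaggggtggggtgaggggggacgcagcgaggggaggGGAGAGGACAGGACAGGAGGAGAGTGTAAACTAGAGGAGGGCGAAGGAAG

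The deposited Meis1 table gives group means, from which whole counts per library were worked back. The libraries are lettered a, b and c by size within a group, since they cannot be tied to the sample codes, and values of a group are given in that order. The Meis1 libraries held 4248755 to 6230893 counts and the Prep1 libraries 4000984 (WT) and 5893401 (hypomorph). The targeted gene Meis1 read 92.6, 88.1 and 112 CPM (read counts scaled to library depth by TMM) in WT and 86.5, 68.1 and 71.0 CPM in KO, lower but far from absent. Pknox1 had 129 counts in the Prep1 WT library and 14 in the hypomorph, a log2 ratio of -3.58. KO library a stood apart, with a summed level of 12 low-oxygen marker genes of 7547 CPM against 1644 to 2281 CPM in the other 5 Meis1 libraries. The summed level of 8 liver marker genes was 187 CPM in the Prep1 WT library and 530 CPM in the hypomorph, that of 8 red cell marker genes was 319 and 459 CPM, and that of 6 heart muscle genes was 231 and 203 CPM. In whole embryos, fewer cells of a type and less RNA per cell cannot be told apart.

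All 9 genes were detected in every library. Levels are compared between genes per kilobase of exon (lengths from GENCODE M21). In the Meis1 WT libraries Tgif1 was highest, at 18.6 ± 2.06 CPM per kb (SD, n = 3), followed by Irx3 at 17.3 ± 3.48, Irx2 at 13.6 ± 1.83 and Tgif2 at 13.2 ± 0.41 CPM per kb. Their values overlapped from each gene to the next in that order. Irx5 at 8.89 ± 0.48 CPM per kb (SD, n = 3) lay below all of these in every WT library and above Irx1, which read 7.47 ± 0.33. Irx1 overlapped with Irx4, at 5.50 ± 1.91 CPM per kb (SD, n = 3). Mkx at 2.73 ± 0.11 and Irx6 at 0.97 ± 0.45 CPM per kb (SD, n = 3) were lowest and overlapped with no neighbour. In the Prep1 WT library, which was normalised separately, Irx3 (23.4 CPM per kb) stood above Tgif1 (17.3 CPM per kb), and in the hypomorph Tgif1 (17.99 CPM per kb) stood above Irx3 (14.9 CPM per kb).

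**Figure D1:**
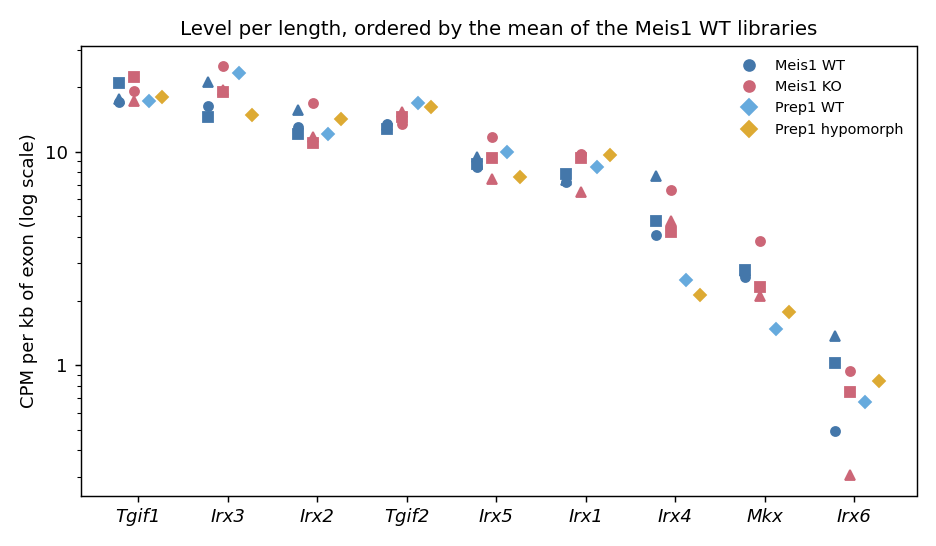
Level of each gene per kilobase of exon (CPM per kb, log scale) in each of the 8 libraries, with genes ordered by the mean of the 3 Meis1 WT libraries; circles, squares and triangles are libraries a, b and c, and diamonds the single Prep1 libraries. Levels run from 18.6 CPM per kb for Tgif1 to 0.97 CPM per kb for Irx6 in the WT mean.

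The first comparison asks what changed in embryos labelled Meis1 KO. None of the 9 genes changed by the test. Irx3, which helps set a boundary between progenitor domains of the ventral neural tube, had the highest mean difference upwards, and Irx6, the least abundant, the largest downwards. Both were within the spread of the libraries. In edgeR's quasi-likelihood test over 14438 genes, every member had a Benjamini-Hochberg adjusted p of 0.9999, against 0 genes called in all (0%; 1 gene, Ppbp, with DESeq2). At an unadjusted p under 0.05, 0 of the 9 members and 226 genes (1.57%) were found. The KO and WT values overlapped in all 9 members, whereas 5.67% of all genes tested had no overlap (3.01% with KO above WT and 2.67% with KO below). All 9 had passed the filter on low counts. Differences were above 0 in 6 members and below 0 in 3, with a median of 0.08 on the log2 scale, beside 7200 above and 7238 below and a median of -0.0006 over all genes.

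**Figure D2:**
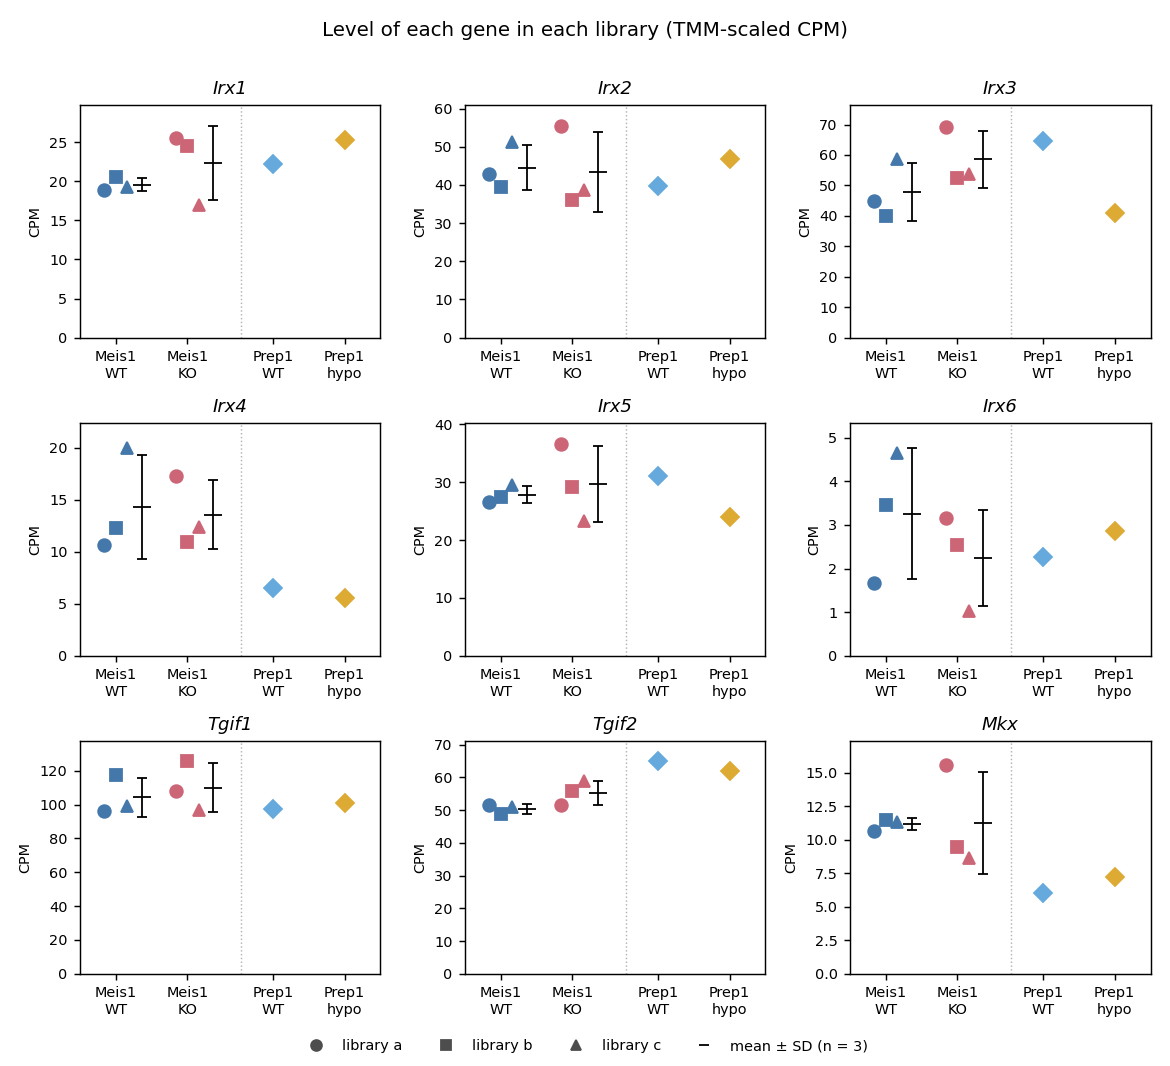
Level of each gene (TMM-scaled CPM, linear axes from 0) in the 3 Meis1 WT, 3 Meis1 KO, 1 Prep1 WT and 1 Prep1 hypomorph libraries; bars are mean ± SD of 3 libraries, and the dotted line parts tables that were normalised separately. WT and KO points overlap in all 9 panels, and in the Iroquois and Mkx panels KO library a is the highest of the KO libraries.

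Irx1, Irx2 and Irx4 form the cluster on chromosome 13 (mm9), where 665 kb separate Irx1 from Irx2 and 626 kb separate Irx2 from Irx4. Irx1 (72095680 to 72101171), expressed in the limb, lung and heart septum, read 18.9, 20.6 and 19.2 CPM in WT and 25.6, 24.5 and 16.9 CPM in KO. KO a and b lay above every WT library and KO c below, and the log2 difference was 0.19 with a standard error (SE) of 0.21 (0.08 without KO a, 0.11 without KO b and 0.36 without KO c). Irx2 (72766245 to 72771644), its neighbour with much the same expression domains, read 42.9, 39.6 and 51.2 CPM in WT and 55.3, 36.1 and 38.6 CPM in KO. Its highest value was in KO a and its lowest in KO b, around a log2 difference of -0.05 (SE 0.19). Irx4 (73397945 to 73407068), a regulator of ventricular identity in the heart, read 10.7, 12.3 and 20.003 CPM in WT and 17.3, 10.97 and 12.4 CPM in KO. WT c and KO a were high and the other 4 libraries low, with a log2 difference of -0.10 (SE 0.29) that was 0.23 without WT c. Summed over the cluster, the level was 78.4 ± 10.4 CPM in WT and 79.2 ± 16.6 CPM in KO (SD, n = 3 each; exact permutation p = 1, two-sided, where 0.1 is the smallest that 3 against 3 allows).

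Irx3, Irx5 and Irx6 form the cluster on chromosome 8 (mm9), with 556 kb between Irx3 and Irx5 and 313 kb between Irx5 and Irx6. Irx3 (94322428 to 94325553) read 45.0, 40.0 and 58.6 CPM in WT and 69.2, 52.5 and 53.9 CPM in KO. WT c lay above KO b and c, and the log2 difference was 0.28 (SE 0.18; unadjusted p = 0.153 in edgeR's quasi-likelihood test). It was 0.15 without KO a, 0.17 without WT b and 0.45 without WT c, where the edgeR unadjusted p was 0.0476, the lowest of any member under any setting, and the adjusted p 0.9998. Irx5 (94881695 to 94885351), which acts with Irx3 in the limb and heart, read 26.5, 27.5 and 29.4 CPM in WT and 36.6, 29.1 and 23.3 CPM in KO. The KO values spanned the WT values on both sides, around a log2 difference of 0.09 (SE 0.19). Irx6 (95198188 to 95204855), known from the retina, had 7, 16 and 29 counts in WT and 13, 12 and 5 counts in KO, or 1.66 to 4.64 and 1.03 to 3.17 CPM. The log2 difference was -0.58 (SE 0.50), and it was -0.22 without WT c or KO c. The cluster as a whole read 78.9 ± 11.9 CPM in WT and 90.4 ± 16.3 CPM in KO (SD, n = 3 each; exact permutation p = 0.5, two-sided).

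Tgif1 and Tgif2 varied least of the members in the KO libraries. Tgif1 (chromosome 17, 71193545 to 71202886) read 96.4, 118 and 99.2 CPM in WT and 108, 126 and 96.6 CPM in KO. In each group library b was highest, and the log2 difference was 0.08 (SE 0.15). Tgif2 (chromosome 2, 156665813 to 156681306) read 51.6, 48.7 and 51.0 CPM in WT and 51.4, 55.7 and 58.8 CPM in KO. KO b and c lay above every WT library and KO a within the WT range, with a log2 difference of 0.13 (SE 0.13; between 0.09 and 0.18 with any 1 library left out). 5430405H02Rik, the opposite-strand gene that overlaps Tgif2 and was chosen after its values were seen, read 19.0 to 21.9 CPM in the 6 libraries.

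Mkx (chromosome 18, 6934964 to 7004777) read 10.7, 11.5 and 11.4 CPM in WT and 15.6, 9.49 and 8.67 CPM in KO. KO a was above every WT library and the other KO libraries below, with a log2 difference of 0.003 (SE 0.27) that was -0.30 without KO a. The counts behind these values were 42 to 71 per library.

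Several members were nearly level across WT libraries and uneven across KO libraries. The coefficient of variation (CV) of Mkx was 3.95% in WT and 33.6% in KO, where counting error by itself gives about 13.3% and 14.1%. For Irx1 it was 4.41% in WT and 21.1% in KO, against 10.1% and 9.95% from counting. For Irx5 it was 5.36% in WT and 22.4% in KO, against 8.42% and 8.65%. The WT values of these genes thus varied by less than counting error gives. In Irx3 and Irx4 the WT libraries varied more than the KO libraries, with a CV of 20.1% and 15.8% for Irx3 and of 34.8% and 24.5% for Irx4. Tgif2 had the lowest CV in both groups, 3.09% in WT and 6.71% in KO, close to or under the 6.27% and 6.28% of counting. The difference in spread between the groups was not tested.

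The library that was highest was shared among the members. All 6 Iroquois genes and Mkx were highest in KO a among the KO libraries, as were 38.7% of all genes tested, while Tgif1 was highest in KO b and Tgif2 in KO c. Among the WT libraries 5 of the 6 Iroquois genes (all but Irx1) were highest in WT c, as were 25.6% of all genes. KO a is the library with the high low-oxygen markers, and its summed level of 8 red cell marker genes was 1439 CPM against 548 to 870 CPM in the other 5. WT c had the highest summed liver markers, 478 CPM against 117 to 364 CPM in the other 5. The part of these differences in the members' values was not tested.

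**Figure D3:**
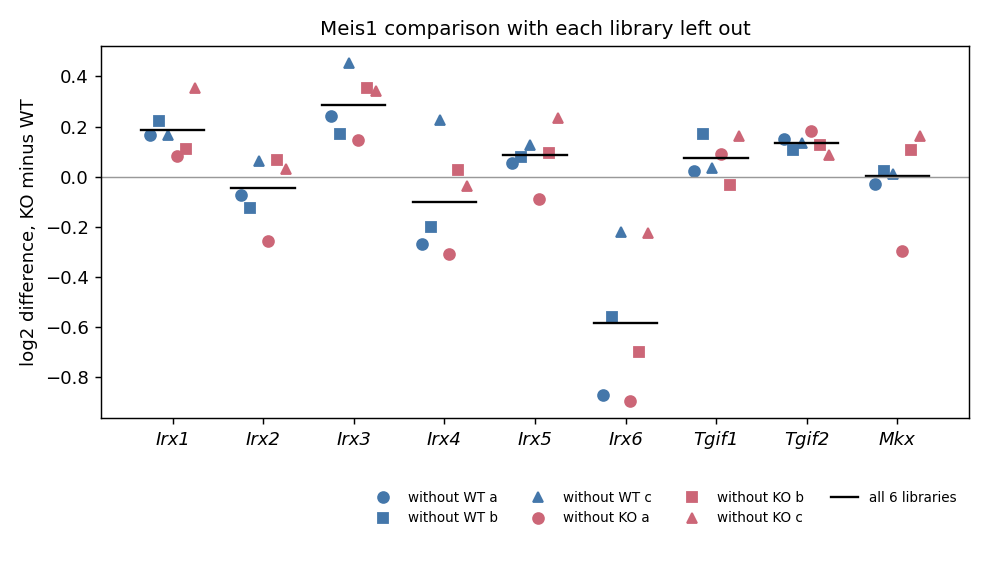
Log2 difference between Meis1 KO and WT for each gene with all 6 libraries (black line) and with each library left out in turn (blue, WT libraries; red, KO libraries; circle, square and triangle for a, b and c). Irx1, Irx3 and Tgif2 stay above 0 and Irx6 below 0 in every case, whereas Irx2, Irx4, Irx5, Tgif1 and Mkx fall on both sides.

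The second comparison asks what differed in the embryo library labelled Prep1 hypomorph. With 1 library per group there is no replicate check, and the 95% exact binomial intervals of the count ratio cover counting error only. Irx3 was lower in the hypomorph, Irx5 was lower by less, and the intervals of the other 7 members include 0. With TMM scaling, 2 of the 8 members that reached 20 counts in 1 library or both had an interval that excludes 0. Both were lower. Such intervals were found in 25% of all 13780 genes (13.1% lower). None of the 8 reached a 2-fold difference, beside 2.47% of all genes (0.464% lower and 2.01% higher). Their median log2 ratio was -0.006, and that of all genes 0.003. Of these members 4 were above 0 and 4 below, beside 6941 above and 6839 below over all genes.

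Irx3 had 256 counts in the WT library and 244 in the deeper hypomorph library, or 64.5 and 41.1 CPM. The log2 ratio was -0.65 (counting interval -0.91 to -0.39), and 2.11% of all genes had a ratio as low or lower. It was larger than the widest gap between 2 Meis1 WT libraries for this gene, 0.55, and smaller than the widest gap among all 6 Meis1 libraries, 0.79. The Prep1 WT value lay above the Meis1 WT range of 40.0 to 58.6 CPM, and the hypomorph value lay inside it, though the 2 tables were normalised separately. In the authors' deposited table, whose ratio is not scaled for depth, Irx3 stands at -0.07. D230002A01Rik (Irx3os in GENCODE), which overlaps Irx3 on the opposite strand and was chosen after its values were seen, had 51 and 44 counts, a log2 ratio of -0.76 (counting interval -1.41 to -0.18). Of the Irx3 words of read length, 2.06% were shared with it in the GENCODE transcripts. The part of shared reads in the 2 ratios was not tested.

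Irx5 had 123 and 142 counts in the WT and hypomorph libraries, or 31.0 and 23.9 CPM, a log2 ratio of -0.37 (counting interval -0.73 to -0.01), and 8.14% of all genes had a ratio as low or lower. The interval ended at -0.0142 with TMM scaling. With library totals the ratio moved from -0.369 to -0.346, by more than that margin. Whether the interval of Irx5 excludes 0 thus depends on the scaling. In the authors' deposited table, not scaled for depth, Irx5 stands at 0.21. The scaled log2 ratio of -0.37 is larger in size than the widest gap between 2 Meis1 WT libraries, 0.15, and smaller than that among all 6, 0.65. Irx6, with 9 and 17 counts, was under the count minimum, at a log2 ratio of 0.29 (counting interval -0.91 to 1.68). Summed over Irx3, Irx5 and Irx6 there were 388 and 403 counts, a log2 ratio of -0.53 (counting interval -0.73 to -0.32).

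In the other cluster Irx1 and Irx2 were above 0 and Irx4 below, with intervals that include 0. Irx1 had 88 and 150 counts in the WT and hypomorph libraries, a log2 ratio of 0.18 (counting interval -0.20 to 0.58). Irx2 had 158 and 278 counts, a log2 ratio of 0.23 (counting interval -0.05 to 0.52). Irx4 had 26 and 33 counts, a log2 ratio of -0.22 (counting interval -1.02 to 0.56). Summed over this cluster there were 272 and 461 counts, a log2 ratio of 0.18 (counting interval -0.04 to 0.40), so that the intervals of both clusters did not meet. Irx3 gave 256 of the 388 WT counts and 244 of the 403 hypomorph counts of the chromosome 8 sum. The contrast is therefore in large part the Irx3 ratio again. Irx6 and Irx4 each went against the sum of their cluster.

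The Tgif genes were nearly level between the Prep1 libraries. Tgif1 had 386 and 601 counts, or 97.2 and 101 CPM, a log2 ratio of 0.06 (counting interval -0.13 to 0.25). Tgif2 had 258 and 368 counts, or 65.0 and 62.0 CPM, a log2 ratio of -0.07 (counting interval -0.30 to 0.17). Mkx had 24 and 43 counts, a log2 ratio of 0.24 (counting interval -0.49 to 1.04). Irx4 and Mkx were lower in both Prep1 libraries (5.56 to 6.55 and 6.05 to 7.24 CPM) than in any Meis1 library. Tgif2 was higher in both Prep1 libraries than in any Meis1 library. The tables were normalised separately.

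**Figure D4:**
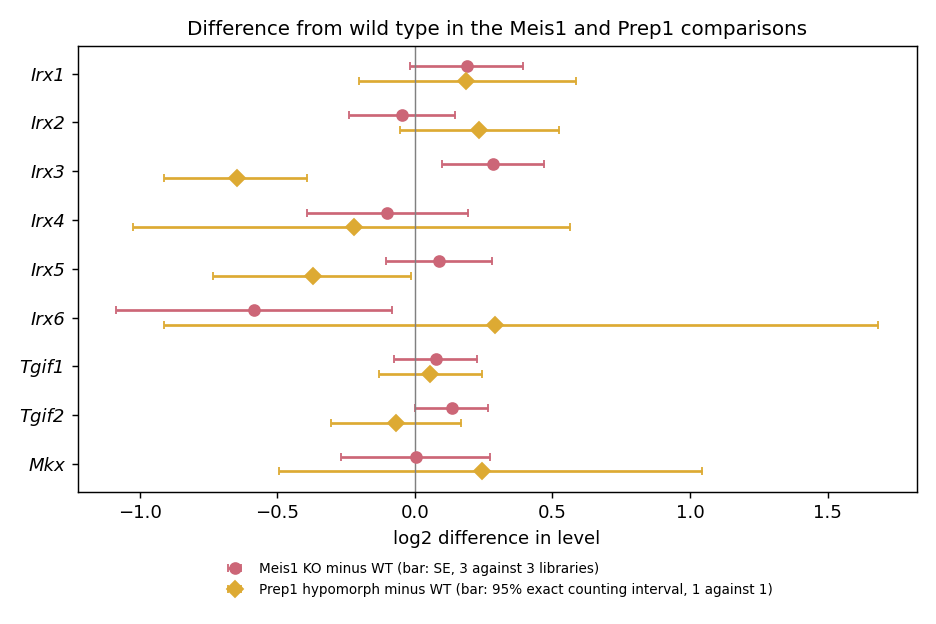
Log2 difference from WT for each gene in the Meis1 comparison (red circles; bar, SE of the edgeR fit over 3 against 3 libraries) and the Prep1 comparison (yellow diamonds; bar, 95% exact counting interval, 1 against 1 library). The bars are of different kinds; Irx3 stands at 0.28 in the first and -0.65 in the second.

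Ratios between genes of the same library do not depend on how libraries are scaled. Of 8 ratios compared, the count ratio of Irx3 to Irx2 was the 1 whose Meis1 groups did not overlap, and it was singled out for that after the values were seen, so no test is given. Where groups do not differ, 3 against 3 libraries fail to overlap with a probability of 0.1. The ratio of Irx3 to Irx2 was 1.05, 1.01 and 1.14 in WT and 1.25, 1.46 and 1.40 in KO. In the Prep1 libraries it was 1.62 in WT (counting interval 1.32 to 1.99) and 0.878 in the hypomorph (0.736 to 1.05). By value, the Prep1 WT library was thus above all 6 Meis1 libraries and the hypomorph below all 6. The counting interval of Prep1 WT met those of WT c and of KO a, b and c. That of the hypomorph met those of WT a, b and c. The counting intervals of single Meis1 libraries met between the groups, for example 0.982 to 1.33 in WT c and 1.05 to 1.496 in KO a.

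As a share of all Iroquois counts, Irx1, Irx2 and Irx4 together made up 49.9% ± 0.58 in WT and 46.6% ± 0.75 in KO (SD, n = 3 each). The WT libraries ranged from 49.4% to 50.5% and the KO libraries from 45.9% to 47.4%. The Meis1 libraries held 615 to 1144 Iroquois counts each, and no counting interval was worked out for the share. The SDs therefore do not bound its error. This share was also chosen after the values were seen. It rests in large part on the same Irx3 and Irx2 counts as the ratio, so it is not a separate result. It was 41.2% in the Prep1 WT library and 53.4% in the hypomorph. Irx3 on its own held 27.9% to 31.99% of the counts in WT, 33.4% to 36.9% in KO, 38.8% in Prep1 WT and 28.2% in the hypomorph. By contrast the ratio of Tgif1 to Tgif2 was 1.87 to 2.42 in WT and 1.64 to 2.26 in KO, with 1.496 and 1.63 in the Prep1 libraries.

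**Figure D5:**
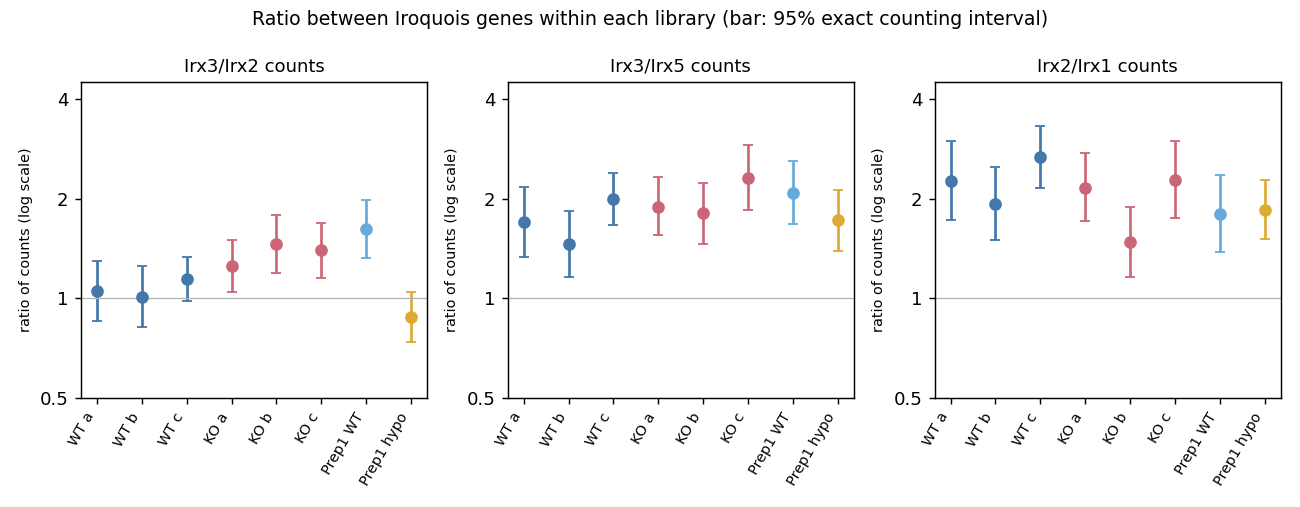
Ratio of counts between pairs of Iroquois genes within each of the 8 libraries (log scale; bar, 95% exact counting interval). The ratio of Irx3 to Irx2 lies between 1.01 and 1.14 in Meis1 WT and between 1.25 and 1.46 in Meis1 KO, and falls from 1.62 to 0.878 between the Prep1 libraries; the other ratios overlap between the Meis1 groups.

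Members of a cluster did not rise and fall together in a way that passed a test. Over the 6 Meis1 libraries, 7 pairs were compared on log2(CPM + 0.5), with exact permutation p-values adjusted over the 7. Irx2 and Irx4 had a Pearson r of 0.85 (adjusted exact p = 0.382) and a Spearman rho of 0.54 (adjusted exact p = 0.694). Their r was -0.20 without the 2 libraries farthest from the median of Irx2, so it rests on those libraries. Irx5 and Irx6 had an r of 0.66 (adjusted exact p = 0.382) and a rho of 0.71 (adjusted exact p = 0.694), with r = 0.69 without the 2 farthest. As residuals from the group means their r was 0.81 (adjusted exact p = 0.136). Irx3 and Irx5 had an r of 0.62 (adjusted exact p = 0.382) and a rho of 0.60 (adjusted exact p = 0.694), and r was 0.24 without the 2 farthest. The other 4 pairs had r between -0.14 (Tgif1 and Tgif2) and 0.25 (Irx1 and Irx2). The libraries share depth and the state of KO a, which these values do not set apart.

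Among 8902 genes with a mean of at least 20 CPM, the genes whose log2 levels followed each member most closely over the 6 libraries are given as a description. For Irx3 they were Srek1ip1, Met and Zfyve16 (r = 0.997 to 0.992), and 0.775% of genes exceeded 0.9. For Irx5 they were Kat5, Tmem184c and Rab11fip2, for Irx1 Cox8a, D6Wsu116e and ORF19, for Irx2 Pef1, Rps21 and Hgsnat, and for Irx4 Epm2aip1, Golga7 and Nat6. Tgif1 was followed by Mtap2, Lypd6 and Aldh2, and Tgif2 by Xpo6, Dll1 (a Notch ligand) and Arhgap33. Mkx was followed by Dync2li1, 2900064A13Rik and 2310045N01Rik, and 1.85% of genes exceeded an r of 0.9 with it. Irx6, under a mean of 5 CPM, was not compared, and it, Irx4 and Mkx were below the minimum for the genes searched.

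Genes that work with the members, or in tissues they pattern, were listed in 9 groups. In the Meis1 comparison 0 genes of any list passed in edgeR's quasi-likelihood test at an adjusted p of 0.05. Of the other TALE genes 7 of 9 were above 0, with a median log2 difference of 0.09. Meis2, the close paralogue of Meis1, stood at 0.39 (SE 0.14) without overlap between the groups, and Meis1 at -0.38 (SE 0.16), also without overlap. With these included, 2 of the 9 had KO above WT and 2 KO below WT without overlap. Over all genes tested the shares were 3.01% and 2.67%. In the Prep1 libraries 7 of 9 were below 0, with Meis3 at -0.35 beside the hypomorphic Pknox1.

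The partners of Tgif proteins and TGF-beta transducers had 11 of 17 tested genes above 0 in both comparisons, with medians of 0.02 (Meis1) and 0.04 (Prep1). Acvr2b, an activin receptor, stood at 0.34 (SE 0.27) and Smad2 at 0.15 (SE 0.13) in Meis1 KO. Tgfbr2, a TGF-beta receptor, stood at 0.65 (counting interval 0.32 to 0.99) in the Prep1 hypomorph, where the corepressor gene Ctbp2 stood at -0.37 (counting interval -0.52 to -0.21) and Acvr2b at -0.35 (counting interval -0.66 to -0.05). Of the TGF-beta and Nodal response genes 4 of 6 were above 0 in Meis1 KO (median 0.16) and 4 of 5 in the hypomorph (median 0.32). Smad7, a feedback inhibitor, stood at 0.32 (SE 0.26) and the cell cycle inhibitor Cdkn1a at 0.27 (SE 0.24) in Meis1 KO. In the hypomorph the matrix genes Tgfbi and Ctgf went opposite ways, at 0.58 (counting interval 0.39 to 0.78) and -0.55 (counting interval -1.03 to -0.10).

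Of the holoprosencephaly genes, the list to which TGIF1 belongs in humans, 9 of 11 were above 0 in Meis1 KO (median 0.11). Ptch1, the hedgehog receptor, stood at 0.49 (SE 0.22). In the hypomorph 9 of 11 were below 0 (median -0.15), with Shh, the hedgehog ligand, at -0.53 (counting interval -1.03 to -0.05) and Zic2 at -0.50 (counting interval -0.71 to -0.30). Among the Meis1 WT libraries Shh ranged from 5.41 to 13.7 CPM and Zic2 from 71.4 to 89.98 CPM. Neural tube patterning factors, which share domains with Irx3, had 6 of 8 above 0 in Meis1 KO (median 0.23) and 8 of 11 below 0 in the hypomorph (median -0.22). Lhx3 and Nkx6-1, of motor neurons and their progenitors, stood at 0.79 (SE 0.49) and 0.66 (SE 0.43) in Meis1 KO. Both were low, and KO and WT values overlapped in each. Lhx3 read 1.42, 2.16 and 1.76 CPM in WT and 1.46, 5.06 and 2.68 CPM in KO, highest in KO b. Nkx6-1 did not exceed 5.91 CPM in any Meis1 library. Pax6, expressed in progenitors of the neural tube and eye, stood at -0.47 (counting interval -0.66 to -0.29) in the hypomorph. Dbx1, another progenitor factor, stood at -0.46 there (counting interval -0.83 to -0.10).

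Tendon and connective tissue genes, where Mkx acts, had 9 of 15 below 0 in Meis1 KO (median -0.02). Egr1, also an immediate early gene, stood at 0.92 (SE 0.36; 39.5 CPM in KO a). In the hypomorph 12 of 15 were above 0 (median 0.47), with the matrix genes Fmod at 1.13 (counting interval 0.65 to 1.70) and Dcn at 1.01 (counting interval 0.62 to 1.45). Among the Meis1 WT libraries Fmod ranged from 17.8 to 52.8 CPM and Dcn from 24.9 to 104 CPM. Eya2 stood at 0.44 (SE 0.22) in Meis1 KO and at -0.41 (counting interval -0.74 to -0.09) in the hypomorph. Heart chamber genes had 9 of 15 below 0 in Meis1 KO (median -0.03) and 11 of 14 below 0 in the hypomorph (median -0.13), where the myosin gene Myh6 stood at -1.15 (counting interval -1.34 to -0.97). Myh6 ranged from 93.7 to 252 CPM among the Meis1 WT libraries. The natriuretic peptide gene Nppa stood at 0.31 (SE 0.24) in Meis1 KO and at 0.52 (counting interval 0.09 to 0.99) in the hypomorph. Limb bud patterning genes had 9 of 12 below 0 in Meis1 KO (median -0.13) and 7 of 12 above 0 in the hypomorph (median 0.20). There Hoxd13, expressed in the distal limb, stood at 1.11 (counting interval 0.70 to 1.58). Zbtb16, expressed in the proximal limb, stood at -1.05 (counting interval -1.48 to -0.67). Among the Meis1 WT libraries Hoxd13 ranged from 11.1 to 24.6 CPM and Zbtb16 from 3.46 to 15.4 CPM.

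Genes next to the Iroquois clusters had medians of 0.006 over 13 genes in Meis1 KO and 0.05 over 12 genes in the hypomorph, with members on both sides of 0. In Meis1 KO, Rpgrip1l stood at -0.19 (SE 0.16) and Aktip at 0.19 (SE 0.17). In the hypomorph, Clptm1l stood at 0.26 (counting interval 0.03 to 0.50) and Nsun2 at -0.24 (counting interval -0.37 to -0.10). Fto, the neighbour of Irx3, stood at -0.08 (SE 0.13) in Meis1 KO and at 0.03 (counting interval -0.12 to 0.18) in the hypomorph. Its name was taken from the list after its values were seen.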

How the data were processed

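The authors mapped single-end reads and estimated expression with RSEM on mm9, per the submitters' processing notes and the labels' protocols. The deposited Meis1 table holds group means of counts divided by a size factor (a signal with no values per library), with the authors' ratio (fold change), log2 fold change, p-values and a variance score per group. The deposited Prep1 table holds expected counts, given as whole numbers with 0 written as 0.1, and the authors' log2 ratio, not scaled for depth. The 2 shorter deposited sheets were not used.

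The deposited means of 3 scaled counts were turned back into whole counts per library, and 18896 of 18904 genes had 1 answer in each group. The 10 genes not settled in both groups, all abundant, were left out, and 18894 were used. The authors' variance scores, not used in that step, were checked against the recovered counts: across genes, the Spearman correlation between the fitted variance they imply and the mean was 0.9995 in each group, against 0.821 and 0.828 with the scores shuffled. The libraries cannot be tied to sample codes. Tests were run with edgeR 4.0.16 (TMM, filterByExpr, quasi-likelihood), with DESeq2 1.42.0 and limma 3.58.1 beside it, in R 4.3.3. Scripts were tested on simulated data. For Prep1, log2 ratios were taken after TMM scaling with a prior count of 2, and genes needed 20 counts in at least 1 library.

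Members, lists and tests were chosen with earlier results of these data known. Named genes are the members, the 2 genes of each list with the smallest p (Meis1) and the 2 with the largest ratio among genes with at least 50 counts (Prep1), from which examples were taken, and the 3 genes most alike each member with a mean of at least 5 CPM. Some genes the rule picks in 1 comparison, among them Acvr2b, Eya2 and Nppa, are given in both.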

Additional observations from a re-analysis of the deposited data

How the results depend on the processing

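No member passed an adjusted p of 0.05 under any of 12 settings of the Meis1 comparison (lowest adjusted p = 0.988 by edgeR, DESeq2 or limma-voom), and 12 of 108 alternative values (the authors' deposited ratios among them) differed in sign from the value reported. With 1 library left out in turn, log2 differences ranged from -0.26 to 0.066 for Irx2, -0.31 to 0.23 for Irx4, -0.087 to 0.24 for Irx5, -0.033 to 0.17 for Tgif1 and -0.30 to 0.16 for Mkx. Mkx was also at -0.057 with limma-voom, -0.018 with library totals and -0.0041 without a filter. DESeq2 called 1 gene in all (Ppbp, adjusted p = 0.00171, against 0.381 with edgeR), and the other settings 0. The 226 genes at an unadjusted p under 0.05 became 395 without a filter, 439 without WT a, 123 without WT c and 538 without KO b. The authors' deposited Prep1 ratio is not scaled for the deeper hypomorph library. Its log2 values were 0.77 for Irx1, 0.82 for Irx2, -0.069 for Irx3, 0.34 for Irx4 and 0.21 for Irx5. They were 0.92 for Irx6, 0.64 for Tgif1, 0.51 for Tgif2 and 0.84 for Mkx. Irx4, Irx5 and Tgif2 thus turned from below to above 0. The 341 genes past 2-fold in the Prep1 comparison became 146 with at least 50 counts and 942 with at least 5. The log2 ratio of Irx3 to Irx2 was higher by 0.36 in KO, and by 0.31 to 0.42 with 1 library left out. It was chosen after seeing the data because its groups did not overlap. Leaving out 1 library therefore could not change its sign, and this range is no check of the difference. No paired analysis was possible because the recovered libraries carry no replicate number. Depth limits Irx6, with at most 29 counts per library, and the single Prep1 libraries.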
